A study of Mus musculus with 2 samples.

Results

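Chemokine-high microglia of the mouse retina are described here: microglia selected on the measured counts of the CC chemokine genes Ccl2, Ccl3 and Ccl4. Microglia were barcodes with a count of at least 3 of 7 genes (P2ry12, Tmem119, Cx3cr1, Gpr34, Siglech, Fcrls and Olfml3), and the chemokine-high cells were the top 10% of them, both libraries pooled, by summed Ccl2, Ccl3 and Ccl4 molecules per 10000 molecules of the cell. This gave 395 chemokine-high cells among 3948 microglia, 4456 kept cells and 4520 barcodes in all: 253 in the library labelled wildtype and 142 in the library labelled as an Igfbpl1 knockout. The other 3553 microglia (2162 and 1391) are called the remaining microglia. The score chose the cells, so the levels of its 3 genes are given as a description.

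Chemokines are small secreted proteins that guide migrating leukocytes. Ccl2 binds the receptor Ccr2 and draws monocytes, while Ccl3 and Ccl4 (the macrophage inflammatory proteins 1 alpha and 1 beta) draw monocytes and T cells. Microglia, the resident macrophages of the retina, are known to make all 3 after inflammatory stimuli, through transcription factors such as NF-kB and AP-1, and also during warm enzymatic preparation of tissue.

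Both groups came from retinas of mice on the C57BL/6 strain that had been perfused with buffered saline and were 8 to 10 months old. The design text gives 10 knockout and 10 sex-matched wildtype mice; how many entered each library, which part of Igfbpl1 was altered and which cell came from which mouse are not given in the sources used here. Igfbpl1 belongs to the family of genes for secreted proteins that bind insulin-like growth factors. Per the labels' protocols and the design text, retinas of both groups were digested warm with collagenase/dispase, papain and DNase, cells were stained for CD45, a leukocyte surface protein that microglia carry, and sorted, and 3' ends were counted with a 10x kit. With 1 library per group there is no replicate check of any difference, no test is given, and every interval below covers counting error alone, at 95%.

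The 2 libraries held 11020717 and 7945713 unique molecular identifiers (UMIs), with medians of 3888 and 4251 per barcode. Igfbpl1 itself was counted 2 times in the library labelled wildtype and 29 times in the library labelled knockout, 0 and 3 of these in chemokine-high cells, which goes against the labels, and 3' counts do not show whether a functional transcript is present. Directions between the libraries therefore rest on the labels as given. The libraries shared 1 barcode, and 0 chemokine-high cells carried it. Chemokine-high cells were about as deep as the remaining microglia, with a median of 4174 against 3984 UMIs under the wildtype label and 4741.5 against 4377 under the knockout label.

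The rule chose microglia by a count of at least 3 of the 7 microglia markers, so their presence is given as a description. All 7 microglia markers were counted in chemokine-high cells of both libraries, with a summed level of 9006 and 9573 counts per 1000000 UMIs (CPM) against 9910 and 9969 CPM in the remaining microglia, and the median chemokine-high cell held 6 of the 7. Border macrophages, the macrophages of vessels and meninges, can also make these chemokines. Their 9 markers summed to 172 and 254 CPM in chemokine-high cells against 232 and 287 CPM in the remaining microglia, and 4 and 3 of the 9 were at 0. At least 2 border macrophage markers were held by 5 of 253 and 7 of 142 chemokine-high cells, 1.98% (0.645 to 4.55) and 4.93% (2 to 9.89). Monocyte markers summed to 12.8 and 20.1 CPM, with Ly6c2 and Chil3 at 0 in both libraries. T and NK cell markers summed to 1.71 and 0 CPM. Of the rod markers, which mark the most numerous cells of the retina, 19.6 and 8.61 CPM were counted. Some other classes had higher sums, mostly from a single gene each. Muller glia and astrocyte markers summed to 570 and 567 CPM (Glul at 480 and 498), against 660 and 558 CPM in the remaining microglia. Neutrophil markers summed to 173 and 194 CPM (Csf3r at 165 and 192), against 181 and 170 CPM. Ganglion cell markers summed to 126 and 112 CPM (Rbpms at 125 and 110), against 95.2 and 80 CPM.

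Ccl4 and Ccl3 made the score, and Ccl2 marked a minority. In the library labelled wildtype, chemokine-high cells held a median of 93.0 Ccl4 UMIs per 10000 (0 to 448), 43.0 of Ccl3 (0 to 176) and 0 of Ccl2 (0 to 98.9). In the library labelled knockout the medians were 91.5 (4.23 to 435), 54.3 (0 to 234) and 0 (0 to 111). Ccl4 was the most counted of the 3 in 84.2% and 71.8% of chemokine-high cells, Ccl3 in 10.7% and 23.9%, and Ccl2 in 3.95% and 1.41%. As shares of all UMIs, Ccl4 stood at 10574 and 10827 CPM against 1575 and 1258 CPM in the remaining microglia, Ccl3 at 4896 and 6228 against 1030 and 969 CPM, and Ccl2 at 923 and 702 against 213 and 174 CPM. The genes lie in 2 parts of chromosome 11 in the GRCm38 build (GENCODE annotation), Ccl2 at chr11:82035571-82037453 beside Ccl7 and Ccl12, and Ccl3 (chr11:83647844-83649355) beside Ccl4 (chr11:83662584-83664683). All 3 are protein-coding genes of 3 exons.

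The chemokine-high cells do not stand apart from the other microglia as a separate group on the score. The threshold fell at 100.6 UMIs per 10000, the 5 cells just inside lay between 100.6 and 101.5, and the 5 just outside between 99.6 and 100. The median score was 142 and 151 in the chemokine-high cells of the 2 libraries, with maxima of 587 and 600, and 15 and 9.45 in the remaining microglia, of which 25.2% and 27.5% had no count of any of the 3 genes. Chemokine-high cells held 46.4% and 48.4% of all Ccl4 counts of microglia, 38% and 41.2% of the Ccl3 counts and 35.9% and 30.5% of the Ccl2 counts, so most microglial counts of Ccl2, Ccl3 and Ccl4 lay in cells below the threshold.

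**Figure D1:**
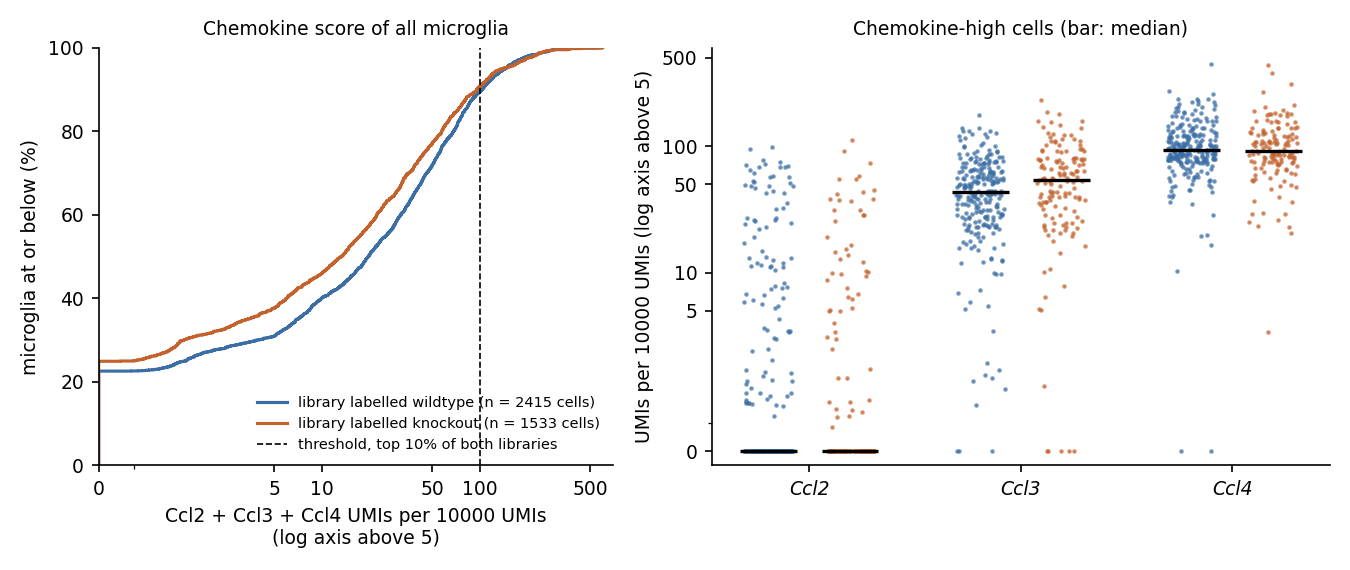
Left, the share of microglia (y, percent) at or below each chemokine score (x, UMIs per 10000, log axis above 5) in each library, with the threshold as a dashed line; right, each chemokine-high cell's Ccl2, Ccl3 and Ccl4 UMIs per 10000 (points, blue for the library labelled wildtype and orange for that labelled knockout; bars, medians). The curves run on through the threshold without a step, and the medians of Ccl2 are 0 while those of Ccl4 are 93.0 and 91.5.

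All 3 genes together were counted in 97 of 253 (38.3%, 32.3 to 44.6) and 52 of 142 (36.6%, 28.7 to 45.1) chemokine-high cells, against 10.8% and 8.77% of the remaining microglia. With every cell thinned to 1000 UMIs, which leaves out 0 and 2 chemokine-high and 31 and 21 remaining cells that were shallower, the shares were 21.3% (16.5 to 26.9) and 17.9% (11.9 to 25.2) against 2.96% and 2.04%. Counts in retinal neurons and glia may be free RNA of the suspension or the cells' own, which was not tested. After thinning, 0 of 68 such cells under the wildtype label had a count of any of the 3 genes (an upper limit of 5.28%). Under the knockout label it was 4 of 47, and 0 in either library had all 3. Thinning left out 4 and 14 of these cells. Before thinning, 8 of 72 and 10 of 61 such cells had a count of 1 of the 3 genes and 1 in each library of 2 of them. Their median depth was 4239.5 and 5305 UMIs, like that of the microglia.

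The share of microglia that were chemokine-high was 10.5% (9.28 to 11.8) in the library labelled wildtype. It was 9.26% (7.86 to 10.8) in the library labelled knockout, and the intervals overlap. At the top 20% of the score the shares were 21.6% (19.99 to 23.31) and 17.5% (15.61 to 19.48), and the intervals do not overlap. With the score taken from thinned counts the shares were 12% (10.8 to 13.4) and 10.8% (9.27 to 12.5), and among cells of 2000 to 8000 UMIs the wildtype-labelled share was 12.1% (10.7 to 13.6), against 117 of 1167 cells (8.36 to 11.9) under the knockout label. In the remaining microglia, the knockout-labelled level over the wildtype-labelled one was 0.80 (0.78 to 0.82) for Ccl4, 0.94 (0.91 to 0.97) for Ccl3 and 0.82 (0.76 to 0.88) for Ccl2. Within chemokine-high cells, Ccl4 was at a ratio of 1.02 (0.995 to 1.05), Ccl3 at 1.27 (1.22 to 1.32) and Ccl2 at 0.76 (0.68 to 0.85).

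Cytokine, NF-kB and early response genes were among those higher in the same cells of both libraries. Set against the remaining microglia, 20 of 1631 genes that reached 100 CPM (1.23%) were higher by 2 times or more, and 0 (0%) lower by as much, under the wildtype label. Under the knockout label 40 of 1628 were higher (2.46%) and 4 lower (0.246%), and 10 of 1516 (0.66%) were higher in both libraries. Those 10 were Ccl2, Ccl3 and Ccl4, which the score used, and Il1b, Cxcl2, Cxcl10, Atf3, Ccrl2, Il1a and Cd83. Il1b and Cxcl2 in both libraries, and Cxcl10 under the knockout label, reached 100 CPM in the chemokine-high cells alone. Atf3, Ccrl2, Il1a and Cd83 reached it in the remaining microglia of both libraries as well.

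Interleukin 1 genes were among the highest. Il1b, which encodes interleukin 1 beta, a secreted inflammatory cytokine, stood at 214 CPM in chemokine-high against 49.1 CPM in remaining cells under the wildtype label (4.36-fold, 3.72 to 5.10) and at 268 against 41.3 CPM under the knockout label (6.49-fold, 5.35 to 7.86). Its counts came from few cells, 36 of 253 and 19 of 142, and 1 cell held 47.6% of the knockout-labelled counts; without that cell the log2 ratio there was 1.78 in place of 2.70. Il1a, the related cytokine, was more evenly spread, in 140 and 72 cells, at 317 against 152 CPM (2.09-fold, 1.85 to 2.34) and 323 against 129 CPM (2.5-fold, 2.15 to 2.90). Tnf, the tumour necrosis factor gene, stood at 376 against 218 CPM (1.72-fold, 1.55 to 1.91) and 508 against 166 CPM (3.07-fold, 2.71 to 3.46). Of the 14 listed inflammatory cytokine genes, 8 were measured at 20 CPM or more in each library. Of these, 5 under the wildtype label and 6 under the knockout label were higher by 1.5 times or more and 0 lower, where 3.37% and 6.75% of all genes were higher by that much and 2.6% and 4.17% lower. Osm and Csf1 were also among them, at 1.78 and 1.62-fold and at 2.77 and 2.66-fold. So was Ptgs2, a prostaglandin synthase gene, under the knockout label, at 27.3 against 3.6 CPM on 19 counts in 6 cells. Ptgs2 there, and Csf1 there at 48.8 against 18.3 CPM, reached 20 CPM in the chemokine-high cells alone. Over the 8 genes at 20 CPM across all microglia, 5 in each library were higher by that much. Il6 (1.05 and 1.00) and Tgfb1 (0.96 and 0.90) were level.

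Some further chemokine genes were higher in chemokine-high cells and others were not. Of 5 other CC chemokine genes measured in each library, 2 and 1 were higher by 1.5 times or more and 0 and 1 lower. Over all genes 3.37% and 6.75% were higher by that much and 2.6% and 4.17% lower. Ccl7 reached 20 CPM in the chemokine-high cells alone. Over the 4 genes at 20 CPM across all microglia, 1 and 0 were higher and 0 and 1 lower. The lower one was Ccl5, which draws T cells. Its ratio was 0.20 (0.13 to 0.295) under the knockout label and 0.96 under the wildtype label. Cxcl10, a ligand of Cxcr3 that draws T cells, stood at 728 against 229 CPM under the wildtype label and at 208 against 66.6 CPM under the knockout label, ratios of 3.19 (2.94 to 3.45) and 3.13 (2.57 to 3.78). Its level under the knockout label was 0.29 of that under the wildtype label in chemokine-high and in remaining cells. Ccl7, a neighbour of Ccl2, was low but higher, at 46.9 against 12.3 and 33.0 against 8.46 CPM. It was counted in 9 and 6 cells, and at least 5 of 7 microglia markers turned its knockout-labelled log2 ratio from 1.96 to -0.75. Cxcl2, a neutrophil attractant, had 122 and 132 counts in 10 and 6 cells, with 51.6% and 42.4% of them in 1 cell of each library; without those cells its log2 ratios were 0.95 and 4.46 in place of 1.99 and 5.24. Ccl6 (1.15 and 0.97) and Cxcl16 (1.34 and 1.40) lay closer to 1. Among receptors, Ccrl2, a non-signalling chemerin receptor, was at 446 against 212 CPM and 327 against 153 CPM, ratios of 2.10 and 2.14. Ccr2, the receptor of Ccl2, was counted 1 and 0 times in chemokine-high cells.

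Several NF-kB feedback and target genes were higher. Of 20 listed genes 16 were measured in each library. Of these, 6 and 9 were higher by 1.5 times or more and 0 lower. The median log2 ratios were 0.45 and 0.74, beside -0.03 and 0.02 over all genes. Over the 14 at 20 CPM across all microglia, 5 and 8 were higher and 0 lower, where 2.35% and 4.2% of all genes were higher. Nfkbia, the inhibitor that NF-kB induces against itself, stood at 1733 against 921 CPM (1.88-fold, 1.79 to 1.98) and at 1860 against 647 CPM (2.87-fold, 2.70 to 3.06). It was counted in 223 of 253 and 132 of 142 chemokine-high cells. Cd83, an activation marker, was at 2.03 and 2.10-fold, Nfkbiz at 1.68 and 2.84-fold and Tnfaip3, a ubiquitin-editing inhibitor of the pathway, at 1.64 and 2.10-fold. Of the subunit genes, Nfkb1 was at 0.84 in both libraries, Rel at 1.22 and 1.23, Rela at 1.15 and 1.39, Relb at 1.18 in both, and Nfkb2, with 30 and 28 counts, at 1.76 and 3.02. Nfkb2 reached 20 CPM in the chemokine-high cells alone, and its wildtype-labelled log2 ratio was -0.096 at the top 5% of the score. Socs3, a cytokine-induced inhibitor of JAK kinases and the 1 marker of these cells that the score did not use, stood at 513 against 284 CPM (1.81-fold, 1.65 to 1.98) and 522 against 227 CPM (2.30-fold, 2.05 to 2.59). Of the 11 SOCS and STAT3 genes, 9 were measured and 3 in each library (Socs1, Socs3 and Pim1) were at least 1.5-fold higher, while Stat3 was at 1.03 and 0.86. Socs1 reached 20 CPM in the chemokine-high cells alone. Over the 8 of these genes at 20 CPM across all microglia, 2 in each library were higher and 0 lower, where 2.35% and 4.2% of all genes were higher.

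Immediate early genes, whose transcription starts soon after a stimulus, were higher in both libraries. Of 25 listed, 22 and 21 were measured, all above a ratio of 1, with median log2 ratios of 0.65 and 1.00. By 1.5 times or more, 13 and 19 were higher, where 3.37% and 6.75% of all genes were. Over the 21 at 20 CPM across all microglia, 12 and 19 were higher by that much and 0 lower. Atf3, a stress-induced transcription factor, stood at 713 against 281 CPM (2.53-fold, 2.34 to 2.74) and 1312 against 345 CPM (3.8-fold, 3.51 to 4.11). Dusp2, a MAP kinase phosphatase gene, was at 2.97 and 2.74, Egr1 at 1.71 and 2.72, Fos at 1.70 and 2.13, Junb at 1.61 and 2.03, Ier3 at 1.85 and 2.26 and Jun, an AP-1 subunit gene, at 1.32 and 1.78. Heat shock genes went with them: of 13 measured, 6 in each library were higher by that much and 0 lower, the medians being 0.53 and 0.49. Hspa1a and Hspa1b, 2 near-identical copies between which reads may be split, stood at 3867 and 4218 CPM against 2027 and 2271 CPM under the wildtype label and at 4131 and 4156 against 2124 and 2590 CPM under the knockout label. Mitochondrial reads, a sign of RNA quality, made up a median of 0.964% and 1.14% of UMIs in chemokine-high cells and 1.19% and 1.36% in the remaining microglia. The part of the warm digestion in these lists was not tested; all cells of both libraries underwent it.

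**Figure D2:**
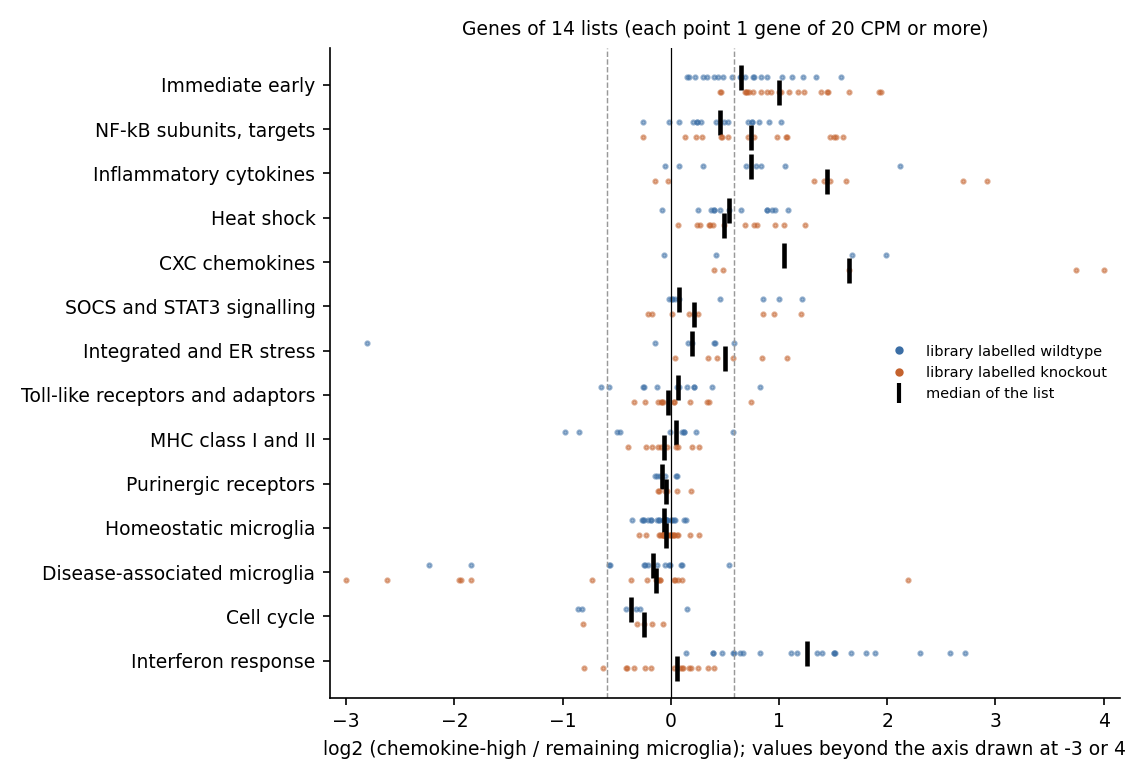
Each point is 1 gene of 20 CPM or more, placed by its log2 ratio of chemokine-high to remaining microglia (x) in the library labelled wildtype (blue) or knockout (orange); rows are 14 gene lists, black bars their medians and dashed lines 1.5-fold; values beyond the axis are drawn at its ends. Immediate early medians are 0.65 and 1.00 and homeostatic medians -0.06 and -0.04, while the interferon response medians are 1.26 and 0.06.

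The same cells were partly the ones highest for these programs. Of chemokine-high cells, 26.9% and 32.9% were among the top 10% of microglia for the immediate early list after thinning, against 9.62% and 7.59% of the remaining microglia. For heat shock the shares were 25.7% and 28.6% against 8.02% and 11.4%, and for NF-kB genes 27.7% and 28.6% against 9.43% and 6.13%. Most chemokine-high cells were thus outside the top 10% of each of these lists.

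Nfkbia and Atf3, among others, were higher in each next class of microglia by score, also below the threshold. Microglia were divided into those without a count of the 3 genes, those with a score up to 23.6 (the median of the remaining cells with a count), those from there to the threshold, and chemokine-high cells below and above their own median of 144. Over these 5 classes Nfkbia ran 500, 908, 1080, 1515 and 1937 CPM under the wildtype label and 257, 590, 883, 1509 and 2172 CPM under the knockout label. Atf3 ran 108, 280, 343, 450 and 959 CPM and 106, 285, 518, 896 and 1681 CPM. Il1b ran 10.3, 49.7, 62.4, 93.6 and 327 CPM and 7.38, 46.4, 50.4, 67.0 and 447 CPM, the last being 211 CPM without the cell that held most counts. The order did not hold for every gene: under the knockout label Cd83 was at 282 CPM in the middle and 235 CPM in the next class and Ccrl2 at 188 and 180 CPM, and Cxcl2 under the wildtype label was at 43.3 and 19.4 CPM. Tnf under the wildtype label was at 275 CPM in the middle class and 265 CPM in the next, so its order there is within counting error. Cells without a count were shallower, with medians of 1995 and 2102.5 UMIs against 4096 to 5008 in the other classes, and the part of depth in that class was not tested.

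**Figure D3:**
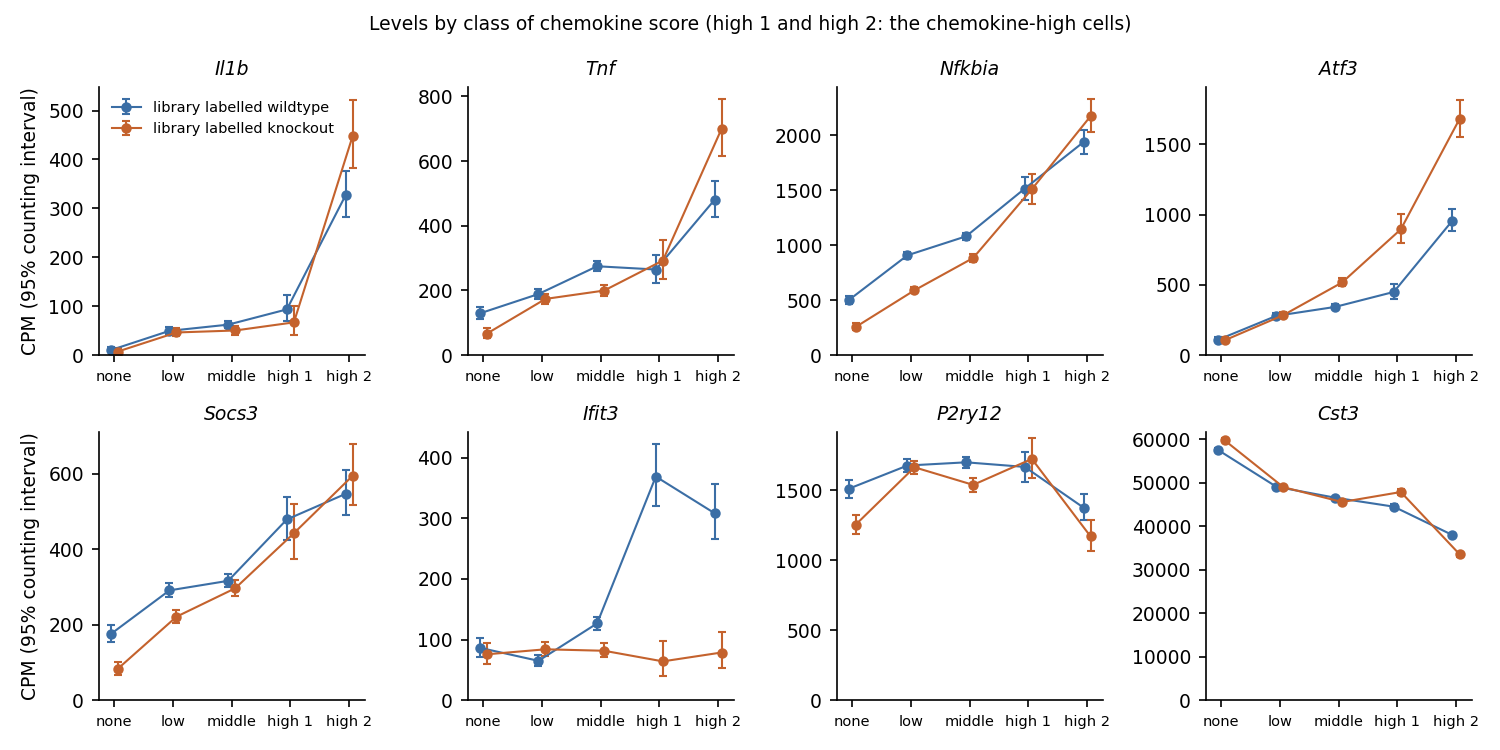
Level of 8 genes (y, CPM; bars, 95% counting intervals) in 5 classes of microglia by chemokine score (x: no count, low, middle, and the lower and upper chemokine-high cells) in the library labelled wildtype (blue) and knockout (orange). Nfkbia and Atf3 are higher in each next class, and Ifit3 stands at 369 and 309 CPM in the 2 chemokine-high classes under the wildtype label and at 64.0 and 78.6 CPM under the knockout label.

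Homeostatic genes, which mark resting microglia, differed little. All 24 listed genes beyond the 7 of the rule were measured and 0 in either library were 1.5-fold apart, with medians of -0.06 and -0.04. Over all genes 3.37% and 6.75% were higher by that much and 2.6% and 4.17% lower, with medians of -0.03 and 0.02. For 24 genes a count of 0 is not far from those shares. Cx3cr1, the fractalkine receptor gene, was at 0.96 (0.93 to 1.00) and 1.03 (0.98 to 1.07), P2ry12 at 0.91 and 0.93 and Siglech at 0.99 and 0.97. Fcrls stood apart at 154 against 260 CPM (0.59, 0.51 to 0.69) under the wildtype label and 166 against 201 CPM (0.83, 0.68 to 1.00) under the knockout label; these 7 genes chose the microglia, though not the chemokine-high cells among them. Cst3, the cystatin C gene and the most abundant of the list, stood at 41123 against 49296 CPM and 40297 against 49477 CPM, ratios of 0.83 and 0.81. In the upper class of chemokine-high cells it was at 37967 and 33564 CPM. There P2ry12 was at 1374 and 1169 CPM, below the 1665 and 1722 CPM of the lower class.

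Of genes at 100 CPM, 0 and 4 were lower in chemokine-high cells by 2 times or more. By 1.5 times or more, 146 and 261 of 6050 genes at 20 CPM across all microglia were lower (2.41% and 4.31%). Higher by as much were 142 and 254 (2.35% and 4.2%). Apoe, the apolipoprotein E gene, stood at 3912 against 5767 CPM (0.68) and at 6659 against 11059 CPM (0.60); 1 cell held 26.3% and 17.9% of the counts. The log2 ratios were -0.56 and -0.73, and -1.79 and -0.80 without cells that hold at least 2 border macrophage markers, a removal chosen after seeing the data. With a score without Ccl4 they were 0.14 and 0.10. Lyz2, the lysozyme gene, was at 0.61 and 0.75, and Cd74, the MHC class II invariant chain gene, at 0.72 and 0.76 with 49.3% and 51.2% of its counts in 1 cell of each library. Of the disease-associated microglia list, 2 of 14 and 6 of 18 measured genes were at least 1.5-fold lower and 0 and 1 higher, where 2.6% and 4.17% of all genes were lower and 3.37% and 6.75% higher. Over the 15 of these genes at 20 CPM across all microglia, 3 and 5 were lower. Under the knockout label Gpnmb (1 count in chemokine-high cells, 0.038), Spp1 (26 counts, 0.26) and Cst7 (10 counts, 0.26) were among the lower. Of these, Gpnmb and Cst7 reached 20 CPM there in the remaining microglia alone. Fabp5 and Lgals3 were lower in both libraries, Fabp5 on 9 and 22 and Lgals3 on 12 and 13 counts in chemokine-high cells, and both turned above 1 in at least 1 library under some alternatives. Lgals3 in both libraries, and Fabp5 under the wildtype label, reached 20 CPM in the remaining microglia alone. The higher one was Ch25h, on 18 counts in 3 cells, and it reached 20 CPM in the chemokine-high cells alone. In the cell cycle list 2 of 6 and 1 of 5 measured genes were lower, among them Stmn1 at 0.55 and 0.57, and 0 higher. Over the 5 at 20 CPM across all microglia, 1 in each library was lower.

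Interferon response genes were higher in the chemokine-high cells of 1 library. Under the wildtype label 22 of 24 listed genes were measured and 16 passed 1.5 times on the higher side and 0 on the lower, the median log2 ratio being 1.26 (order-statistic interval 0.58 to 1.67). Under the knockout label 16 were measured, 0 were higher and 2 lower by as much, the median being 0.06 (-0.40 to 0.19). The counts of the 2 libraries cover different genes, and Ifnb1, Cmpk2 and Oasl1 reached 20 CPM in wildtype-labelled chemokine-high cells alone. Over all genes 3.37% and 6.75% were higher by that much and 2.6% and 4.17% lower. Over the 19 genes at 20 CPM across all microglia, 13 were higher and 0 lower under the wildtype label and 0 higher and 4 lower under the knockout label, with medians of 1.11 and -0.09. Of all genes at that level, 2.35% and 4.2% were higher and 2.41% and 4.31% lower. Interferon response genes answer type I interferon and act against viruses. Ifit3, an antiviral gene of this list, stood at 338 against 96.5 CPM (3.50-fold, 3.1 to 3.94) under the wildtype label and at 71.8 against 81.6 CPM (0.88-fold, 0.64 to 1.18) under the knockout label. It shares near-identical sequence with Ifit3b, at 3.69 and 0.94. Rsad2, the viperin gene, was at 4.92 (3.90 to 6.20) and 0.63 (0.23 to 1.43), with 124 and 6 counts, and Irf7, a transcription factor that amplifies interferon production, at 2.84 (2.39 to 3.36) and 0.57 (0.37 to 0.86). Ccl12, a monocyte attractant beside Ccl2, followed, at 2619 against 936 CPM (2.80-fold) and 861 against 678 CPM (1.27-fold). The difference between the 2 ratios was not tested, since each label has 1 library.

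Cells with several antiviral genes were set apart by 7 genes of the same list. At least 3 of 7 antiviral genes (Ifit1, Ifit2, Ifit3, Isg15, Rsad2, Irf7 and Usp18) were counted in 32 of 253 chemokine-high cells under the wildtype label, 12.6% (8.81 to 17.4), against 6.89% (5.86 to 8.04) of the remaining microglia. Under the knockout label it was 12 of 142, 8.45% (4.44 to 14.3), against 10.7% (9.13 to 12.5), so the shares of chemokine-high cells overlap between the libraries. The levels within such cells were further apart. Ifit3 stood at 1930 CPM in the 32 and 560 CPM in the 12 chemokine-high cells, against 890 and 415 CPM in the 149 and 149 such remaining cells. Cxcl10 was at 2843 and 475 CPM, and Ccl12 at 9067 and 2443 CPM, in the same 32 and 12 cells. Without all cells of this kind, an alternative added after seeing the data that removes cells by genes of the list itself, the wildtype-labelled median was 0.09. Ifnb1, the interferon beta gene, was counted 29 times in 9 chemokine-high cells under the wildtype label, of which 2 held 3 antiviral genes, and 0 times under the knockout label, at least 5.74-fold lower with a floor of 3 counts over the group (the counting interval of the ratio reaches 0.228); it was chosen after its values were seen.

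**Figure D4:**
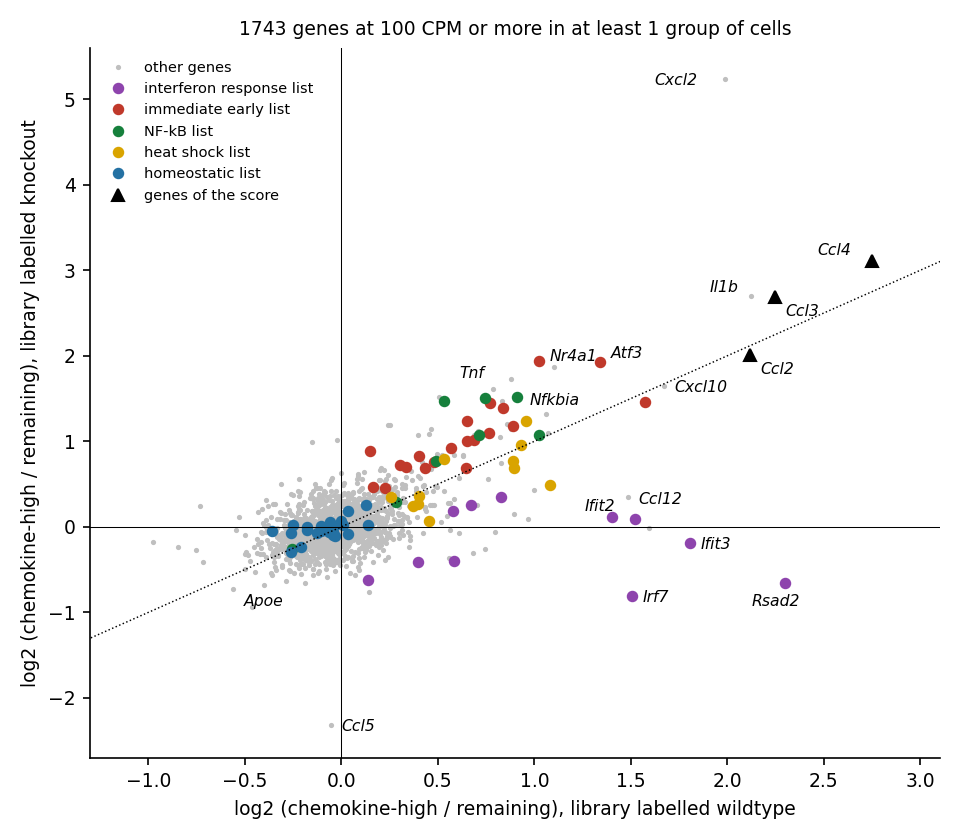
Each point is 1 gene of 100 CPM or more in at least 1 of the 4 groups of cells, placed by its log2 ratio of chemokine-high to remaining microglia in the library labelled wildtype (x) and in that labelled knockout (y); colours mark gene lists, triangles the 3 genes of the score, and the dotted line equal ratios. Il1b, Atf3 and Cxcl10 are at least 2-fold higher in both libraries, while Rsad2, Ifit3 and Irf7 lie to the right and below 0, at log2 ratios of 2.30, 1.81 and 1.5 under the wildtype label and -0.66, -0.19 and -0.80 under the knockout label.

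The stretches before the start of 5 of these genes are shown, to set promoter letters beside the groups of genes described above: 3 genes higher in chemokine-high cells of both libraries (Nfkbia, Cxcl2, Cxcl10), 1 above a ratio of 1 under the wildtype label and not under the knockout label (Ifit3) and 1 gene of the score (Ccl3). They are the 250 bases before the RefSeq start in GRCm38.p6, on the gene's strand, 5' to 3'. Capitals mark matches on either strand to the kappaB element, which NF-kB dimers bind, or to the core of the interferon-stimulated response element, GAAANNGAAA (TTTCNNTTTC on the other strand).
Nfkbia, chr12:55492648-55492897, minus strand: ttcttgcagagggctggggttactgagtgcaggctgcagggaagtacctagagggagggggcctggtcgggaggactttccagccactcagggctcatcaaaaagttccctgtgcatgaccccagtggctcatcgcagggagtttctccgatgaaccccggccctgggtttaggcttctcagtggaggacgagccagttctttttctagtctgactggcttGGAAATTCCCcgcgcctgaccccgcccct
Cxcl2, chr5:90903649-90903898, plus strand: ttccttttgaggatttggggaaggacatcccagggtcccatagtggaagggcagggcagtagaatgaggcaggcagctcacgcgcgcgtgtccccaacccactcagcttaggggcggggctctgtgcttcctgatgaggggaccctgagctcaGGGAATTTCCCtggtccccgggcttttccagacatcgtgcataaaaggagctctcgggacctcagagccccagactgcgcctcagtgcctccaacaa
Cxcl10, chr5:92348890-92349139, minus strand: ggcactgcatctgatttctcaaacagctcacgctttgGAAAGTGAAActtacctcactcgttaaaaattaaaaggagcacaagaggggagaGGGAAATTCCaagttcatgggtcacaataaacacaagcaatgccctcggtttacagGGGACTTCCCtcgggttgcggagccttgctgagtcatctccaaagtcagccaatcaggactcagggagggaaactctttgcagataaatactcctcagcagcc
Ifit3, chr19:34583279-34583528, plus strand: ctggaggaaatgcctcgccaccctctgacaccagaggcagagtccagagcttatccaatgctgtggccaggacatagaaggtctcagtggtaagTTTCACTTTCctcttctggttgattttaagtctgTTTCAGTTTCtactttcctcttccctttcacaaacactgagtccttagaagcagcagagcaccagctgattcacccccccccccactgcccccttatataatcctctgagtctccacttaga
Ccl3, chr11:83649379-83649628, minus strand: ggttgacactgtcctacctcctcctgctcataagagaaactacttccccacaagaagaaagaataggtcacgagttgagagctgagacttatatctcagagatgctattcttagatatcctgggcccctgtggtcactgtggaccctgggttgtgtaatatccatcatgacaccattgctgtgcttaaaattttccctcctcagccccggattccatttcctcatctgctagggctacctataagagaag
Nfkbia held a kappaB match whose first base lay at -29 from the start, Cxcl2 held 2 overlapping ones at -97 and -96, and Cxcl10 held 2 at -159 and -103 with a response element core at -213. Ifit3 held 2 response element cores, at -156 and -122, and no kappaB match. Over all 32851 RefSeq windows of this length, 3.90% held a kappaB match and 2.98% a response element core. Rsad2 (1 match) and Isg15 (3 overlapping) also held the core. Ccrl2 held a kappaB match at -56 in 1 of the windows of its several starts and neither element in the others. The windows of Ccl3, Il1b, Il1a, Tnf, Socs3, Atf3, Ccl12, Irf7 and Ifit2 held neither, which says only that these letters are not in this stretch. No window was available for Ccl2, Ccl4 and Cd83, so they were not searched.

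Between the libraries, a majority of the measured interferon response genes were lower in the chemokine-high cells labelled knockout. Under the knockout label, 40 of the 1655 genes that reached 100 CPM (2.42%) were higher by 1.5 times or more, and 41 (2.48%) lower by as much. In the remaining microglia it was 17 of 1594 (1.07%) and 8 (0.502%); chemokine-high cells are fewer, so their ratios vary more by counting alone. Of the 22 interferon response genes measured, 14 were lower by 1.5 times or more in chemokine-high cells and 0 higher, where 7.57% of all genes were lower and 8.38% higher at the 20 CPM used for lists. Over the 19 at 20 CPM across all microglia, 11 were lower and 0 higher. The median log2 ratio over the 22 was -1.13 there and 0.13 in the remaining microglia, where 2 of 19 were higher and 2 lower. Without cells with 3 antiviral genes the median in chemokine-high cells was 0.43.

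Among the lowest ratios were Rsad2 at 0.08 (106 and 8.61 CPM), Ifit2 at 0.18 (165 and 30.1 CPM), Ifit3 at 0.21 and Irf7 at 0.22. In chemokine-high cells these genes reached 100 CPM under the wildtype label alone. Ccl5 was also at 0.22, with 173 and 37.3 CPM in chemokine-high cells but 180 and 186 CPM in the remaining microglia. It was counted in 26 and 12 chemokine-high cells, with 158 of 203 wildtype-labelled counts in the 32 antiviral cells, and stood at a log2 ratio of -0.17 without such cells. Cxcl10 was at 0.29 in chemokine-high and in remaining cells alike, and Ccl12 at 0.33 against 0.72.

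Some stress and early response genes were among the high ratios of genes at 100 CPM or more. Nr4a1, an early response nuclear receptor, stood at 46.9 and 112 CPM (2.39, 1.67 to 3.43), Cdkn1a, the cell cycle inhibitor p21, at 59.7 and 138 CPM (2.31, 1.68 to 3.19) and Nupr1, a stress-induced gene, at 74.2 and 159 CPM (2.15, 1.61 to 2.88). These genes were picked as high ratios and reached 100 CPM under the knockout label alone. In the remaining microglia Nr4a1 was at 1.26 (1.03 to 1.55). Gadd45b, a stress and NF-kB target gene, was at 148 and 280 CPM (1.90), but at a log2 ratio of -0.0061 on thinned counts. Atf3 was at 1.84 (1.67 to 2.02) in chemokine-high against 1.23 (1.16 to 1.30) in remaining cells. H2-Eb1 and H2-Aa, MHC class II genes, were also among them at 2.22 and 2.02, with 82.1% and 87.8% of the wildtype-labelled and 56.8% and 52.8% of the knockout-labelled counts in 1 cell. Both reached 100 CPM in chemokine-high cells under the knockout label alone. At lower levels, Spp1 was at 2.56 and 37.3 CPM on 3 and 26 counts (14.6, 4.47 to 75.3), and at 9.59 and 143 CPM in the remaining microglia. As a list, immediate early genes had 6 of 22 higher and 1 lower (median 0.15), and NF-kB genes 3 of 16 higher and 0 lower (median 0.14). Of all genes 8.38% were higher and 7.57% lower. Over the 21 and 14 listed genes at 20 CPM across all microglia, 6 and 2 were higher and 0 lower.

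Chemokine-high cells with a Ccl2 count differed from those without one. They were 101 of 253 and 56 of 142 cells, 39.9% and 39.4%, and were deeper, with medians of 4687 and 5373.5 UMIs against 4032 and 4644. Ccl4 and Ccl3 were level between them, at ratios of 1.01 and 1.02 for Ccl4 in the 2 libraries and 1.02 and 0.99 for Ccl3. The score chose all these cells mainly on Ccl4 and Ccl3, with Ccl2 at 5.63% and 3.95% of its counts. These level ratios were thus largely set by the selection and are given as a description. Of 1523 genes, 23 and 26 were higher by 2 times or more with Ccl2, 13 of them in both libraries, and 1 and 9 lower, 0 in both. Ccl12 stood at 4248 against 1308 CPM (3.25) and 1367 against 467 CPM (2.93), Ifit3 at 639 against 95.4 CPM (6.70) and 138 against 20.4 CPM (6.75), and Il1b at 369 against 89.3 CPM (4.14) and 479 against 105 CPM (4.58). Without the 1 cell of each library with the most Il1b counts, 33 and 89, the Il1b ratios were 3.53 and 1.84. Cxcl10 did not follow in both, at 7.18 under the wildtype label and 0.79 under the knockout label. Of the cells with Ccl2, 23.8% (15.9 to 33.3) and 16.1% (7.62 to 28.3) held 3 antiviral genes, against 5.26% (2.30 to 10.1) and 3.49% (0.725 to 9.86) of those without.

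Border macrophage markers and MHC class II genes went with Ccl2 through a few cells. At least 2 such markers were held by 5 of 101 and 6 of 56 cells with Ccl2 and by 0 of 152 and 1 of 86 cells without. Apoe was at 8043 against 588 CPM and 11463 against 2919 CPM, 13.7 and 3.93-fold, and at 0.54 and 1.00 once those cells were left out. Cd74 was at 5.87 and 14.3-fold, and 1.11 and 1.51-fold without them. Without them Ifit3 was at 7.38 and 7.23, Ccl12 at 3.37 and 2.12 and Il1b at 3.64 and 4.16. Il1b was at 2.95 and 1.06 without them and without the cell with its most counts. Its knockout-labelled ratio was 1.84 without that cell alone, so it rests on that cell and the cells with border macrophage markers together.

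**Figure D5:**
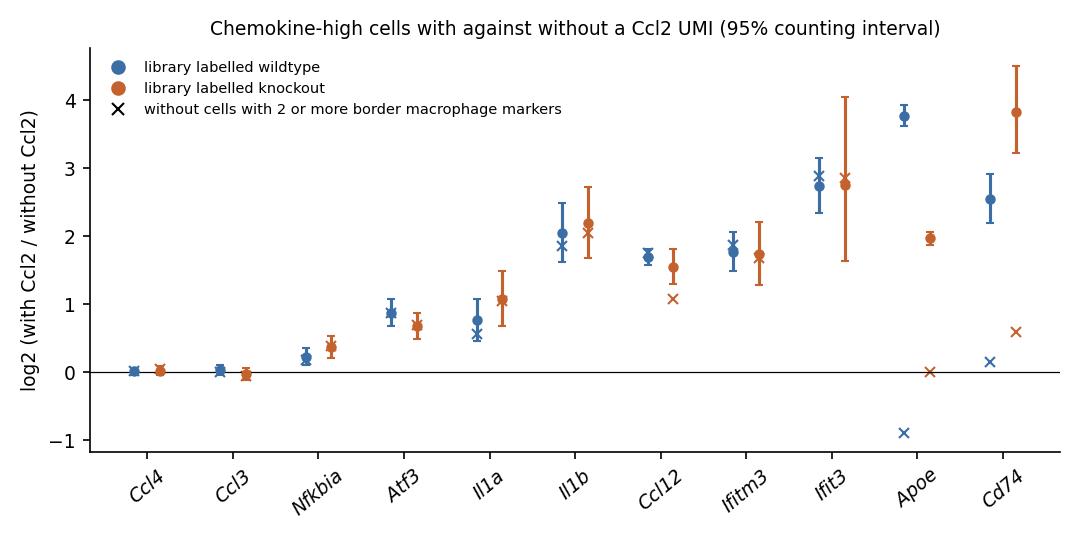
Log2 ratio (y) of chemokine-high cells with a Ccl2 UMI to those without, for 11 genes (x), in the library labelled wildtype (blue) and knockout (orange); bars are 95% counting intervals, and crosses the value without cells holding 2 or more border macrophage markers. Ccl4 and Ccl3 lie near 0, which the selection by score largely set. Ifit3 and Il1b lie above with and without those cells, and the crosses of Apoe lie at or below 0. The knockout-labelled Il1b ratio was 1.84 without the 1 cell with its most counts, and 1.06 also without those cells.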

How the data were processed

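The authors deposited 1 table of raw counts per library, whole UMI counts of 31053 genes by barcode, not normalized. Cell Ranger 3.1 and mm10 are named, per the submitters' processing notes. Cells needed 500 UMIs, 250 genes and no more than 15% mitochondrial UMIs, and 40 and 24 barcodes failed. No doublet caller was run, so doublets may remain. Counts were summed over each group of cells and divided by their total (CPM). Ratios of sums have exact binomial intervals conditional on the 2 sums, and shares have Clopper-Pearson intervals, for counting error only. The code was tested on simulated data. A side at 0 was set to 3 counts over the group. Genes had to reach 100 CPM (20 CPM in lists) on 1 side of a ratio. Thinning drew 1000 UMIs per cell. Retinal neurons and glia had at most 2 microglia markers and at least 3 of their own. Named genes were Ccl2, Ccl3, Ccl4, Socs3, Igfbpl1, the 12 highest and 10 lowest ratios common to both libraries, the 8 highest and 8 lowest between libraries, and the 2 highest, 2 lowest and most abundant of each list. Other genes were added as examples after their values were seen. The cells and the 17 lists were chosen with earlier results of these data known, and 1 list gene is not analysed here. Some genes that the rule names are not reported here. Promoter letters come from RefSeq and positions from GENCODE. Alternatives covered the score, cell filters, depth, scaling and minimum level. Python 3.11.15, numpy 2.4.6, scipy 1.17.1 and pandas 2.3.3 were used.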

Additional observations from a re-analysis of the deposited data

Results flagged for a closer look

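Among the genes that the naming rule picks, Irf7, Bst2 and Ifi27l2a, all interferon-induced, lay on opposite sides of 1 in the 2 libraries, with both counting intervals away from 1. Irf7 was at a ratio of chemokine-high to remaining microglia of 2.84 under the wildtype label and 0.573 under the knockout label. Bst2, whose protein tethers budding viruses, was at 1.31 and 0.749, and Ifi27l2a at 1.10 and 0.648. With a score without Ccl4, the knockout-labelled log2 ratio of Irf7 was 0.0084, and that of Ifi27l2a under the wildtype label was -0.072 at the top 20% of the score, -0.015 with the thinned score, -0.061 with equal weight per cell and -0.058 on thinned counts. The difference between the libraries was not tested, since each label has 1 library.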

How the results depend on the processing

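No paired analysis was possible because each label has 1 library, and for the same reason no replicate could be left out. Of the values recomputed under 22 alternatives, 5364 stayed within the interval of the main value or, for counts, within 1.5 times of it. The interval was the counting interval for genes and shares and the order-statistic interval for list medians. Another 28 changed sign from a main value clear of no change: a gene at least 1.5-fold from 1 with its interval away from 1, or a list median whose interval left out 0. The other 914 moved by more than the interval. Sign changes from main values nearer to no change are among the 5364 and the 914. The cause of these shifts was not tested. The medians of immediate early, NF-kB, heat shock and cytokine lists in chemokine-high over remaining cells were among the 5364 in each of the 18 alternatives run for lists and stayed above 0. Median-of-ratios scaling shifted all genes by 0.04, -0.01 and -0.01 (log2) in the 3 contrasts. Removals of cells with antiviral genes, of cells with border macrophage markers and of single cells, and lists over genes at 20 CPM across all microglia, were chosen after seeing the data.

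The threshold sets the pooled share by construction, while the shares of the libraries can differ. Chemokine-high cells were 5.13% and 4.83% at the top 5%, where the intervals overlap. They were 21.6% (19.99 to 23.31) and 17.5% (15.61 to 19.48) at the top 20%, where the intervals do not overlap. The wildtype-labelled share was 12% with the thinned score and 12.1% at 2000 to 8000 UMIs. All 3 genes were counted in 46.8%, 31.6% and 45.1% of wildtype-labelled chemokine-high cells at the top 5%, the top 20% and without Ccl4, and in 21.3% and 17.9% of those under the 2 labels after thinning.

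Counts of genes past 2 times (wildtype label, knockout label, both) were 13, 16 and 6 at the top 20%, 32, 85 and 18 on thinned counts and 188, 283 and 36 at a minimum of 20 counts. They were 18 for both at the top 5%, 22 for the knockout label at 2000 to 8000 UMIs, 33 for the wildtype label at 50 CPM, and 13 and 24 at 200 CPM. Counts between libraries (higher, lower) were 94 and 78 at the top 5%, 20 and 18 at the top 20%, 235 and 172 on thinned counts, 154 and 127 at 50 CPM, 15 and 7 at 200 CPM and 695 and 737 at 20 counts, with 26 higher by the thinned score.

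Median log2 ratios moved as follows. NF-kB between libraries was 0.41 at the top 5% and -0.11 on thinned counts, and heat shock -0.030 at 2000 to 8000 UMIs. Homeostatic genes under the knockout label were at -0.18 (top 5%), -0.095 (thinned score), -0.12 (without Ccl4) and -0.083 (without the 2% deepest cells), and under the wildtype label at -0.027 with size factors. Interferon genes under the knockout label were at 0.30 (top 20%), 0.20 (thinned score), -0.41 (2000 to 8000 UMIs) and 0.22 (equal weight per cell). Between libraries they were at -0.39 without Ccl4 and 0.43 without antiviral cells, and under the wildtype label at 0.094 without antiviral cells.

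Single genes whose main ratio was at least 1.5-fold from 1, with its interval away from 1, changed sign as follows, in log2. At the top 5% under the wildtype label, H2-Eb1 was 0.025, H2-Aa 0.12 and Nfkb2 -0.096. At the top 20%, Lgals3 was 0.88 (wildtype label) and Stmn1 0.11 (knockout label). By the thinned score Lgals3 was 1.43. Without Ccl4, H2-Eb1 was 0.49, H2-Aa 0.53 and Lgals3 1.39 (wildtype label), Apoe 0.10 and Irf7 0.0084 (knockout label) and Cxcl2 -0.72 between libraries. Ccl7 was -0.75 (knockout label) with at least 5 of 7 markers. Fabp5 (knockout label) was 0.52 without the deepest cells, 1.46 at 2000 to 8000 UMIs and 0.094 on thinned counts, and Lgals3 1.07 and 0.97 at 2000 to 8000 UMIs. On thinned counts between libraries, Gadd45b was -0.0061, Cxcl14 -0.32 and Tlr13 -0.021. Without antiviral cells, Rsad2 was -0.21 and Ifit2 -0.35 (wildtype label), and Ifit3 0.0077 and Mx1 0.44 between libraries. Without border cells H2-Eb1 between libraries was -0.54.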
